A study of Mus musculus with 6 samples.

Results

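The 33 genes described here encode enzymes of cholesterol synthesis, the SREBP transcription factors with their partner proteins, a sterol carrier, and fatty acid genes that SREBP proteins activate. They were compared between bone marrow derived macrophages of wild-type (WT) and Bach1 KO mice, and they were chosen by name, for their role in the pathway, when earlier results of these data were known. The arrays held 45 probes for them, matched through transcript accessions. Of several probes for a gene, as 11 genes had, the one with the highest mean level stands for it. All 33 genes passed the filter on dim probes, as did 15750 of the 20018 named genes on the arrays, and each of the 33 was well above background on all 6 arrays. Both genotypes were C57BL/6 mice aged 11 weeks, with 3 mice each (2 males and 1 female), and every mouse gave 1 single-colour Agilent array. The controls are called WT 1, 2 and 3 and the Bach1 KO mice KO 947, 948 and 949, after their labels. Marrow cells of both had been cultured for 5 days with 10 ng/mL GM-CSF and 10% serum. The labels name neither the Bach1 allele nor the cells in which it is deleted. Serum supplies cholesterol to the cells of both groups.

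Cholesterol is made from acetyl-CoA, first through mevalonate to farnesyl pyrophosphate, and then through squalene and lanosterol to the finished sterol. SREBP-2, encoded by Srebf2, chiefly activates the enzymes of this route, and SREBP-1, encoded by Srebf1, chiefly those of fatty acid synthesis. Both are made as membrane proteins of the endoplasmic reticulum. The escort protein Scap carries them to the Golgi for cleavage when sterols are scarce, and the Insig proteins hold Scap back when sterols or oxysterols are plentiful. Macrophages also take up large amounts of cholesterol from cells and lipoproteins that they engulf. Bach1 is a heme-binding repressor that pairs with small Maf proteins on Maf recognition elements. Other enzymes of the route, outside these 33 genes, were not analysed here.

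Before the values, 4 upstream sequences are shown. Hmgcs1, whose genotypes overlapped, is the member with the full core that SREBP proteins recognise. Srebf2, Msmo1 and Dhcr7 were picked with their differences known, which were among the highest of the set. Tm7sf2 and Sc5d differed more than Dhcr7, and their windows hold no match to the AP-1 core TGAGTCA. The sequences are from RefSeq (build GRCm38.p6). That table holds windows for 26 of the 33 genes, from 250 bases before to 50 after each listed start, and the first 3 sequences here stop at the start. Capitals mark TCACNCCAC, the core of a sterol regulatory element, in Hmgcs1 (chr13:119690101-119690350, plus strand), and the same core without its last base, TCACNCCA, in Srebf2 (chr15:82147019-82147268, plus strand). In Msmo1 (chr8:64733579-64733828, minus strand) capitals mark the AP-1 core TGAGTCA, without the GC that follows it in a Maf recognition element. The TCACNCCA match of Msmo1, TCACTCCA at position -177, is left in small letters. In Dhcr7 a stretch of 30 bases (chr7:143830097-143830126, plus strand) is shown around TGAGTCAGC, which is the AP-1 core extended towards a Maf recognition element.
Hmgcs1: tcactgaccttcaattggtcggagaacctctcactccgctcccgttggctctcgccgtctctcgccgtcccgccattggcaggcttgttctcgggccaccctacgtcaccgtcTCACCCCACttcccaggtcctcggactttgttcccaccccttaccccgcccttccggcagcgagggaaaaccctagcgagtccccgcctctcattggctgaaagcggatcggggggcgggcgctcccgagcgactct
Srebf2: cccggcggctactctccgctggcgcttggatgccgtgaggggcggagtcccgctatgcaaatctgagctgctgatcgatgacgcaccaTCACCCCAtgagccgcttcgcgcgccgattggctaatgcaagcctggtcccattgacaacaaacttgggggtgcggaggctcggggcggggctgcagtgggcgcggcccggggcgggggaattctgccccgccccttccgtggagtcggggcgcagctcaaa
Msmo1: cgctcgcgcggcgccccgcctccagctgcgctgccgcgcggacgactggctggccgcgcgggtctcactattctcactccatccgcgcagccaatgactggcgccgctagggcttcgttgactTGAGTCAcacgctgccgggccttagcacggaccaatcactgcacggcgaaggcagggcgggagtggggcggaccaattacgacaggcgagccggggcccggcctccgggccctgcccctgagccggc
Dhcr7: ctggtgggctcTGAGTCAGCtcactgcctt

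The sterol regulatory element core begins at position -137 from the start of Hmgcs1, and the shortened core at position -162 from that of Srebf2. Searched on both strands, the full core was in the windows of 1 of 26 member genes (3.8%) and of 1.44% of all 27025 genes with a window. The shortened core, searched after the sequences had been seen, was in 3 members (11.5%; Hmgcs1, Srebf2 and Msmo1) and 4.97% of all genes. CCAAT, the box of the SREBP cofactor NF-Y, was in 21 members (80.8%) against 41.1% of all genes, and in 9 of 9 sterol arm genes with a window. GGGCGG, which Sp1 binds, was in 21 members (80.8%) against 38.2%. CACGTG, an E-box, was in 6 members (23.1%) against 8.09%. The AP-1 core was in 2 members, Msmo1 and Dhcr7 (7.7%), against 5.95%, and TGAGTCAGC in Dhcr7 alone (3.8%) against 0.481%. The Dhcr7 match begins at position -106 from one of its 3 listed starts. These are counts of letters in short windows and show no binding.

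The cultures had strong macrophage transcripts, and 7 of 8 listed macrophage markers were measured, none of them past the test (the probe of the remaining marker, Cd68, was not named here or too dim). For Bach1 itself, the probe gave 2.21 (WT 1), 2.48 (WT 2) and 2.59 (WT 3), and 1.45 (KO 947), 2.00 (KO 948) and 2.23 (KO 949). Where it lies relative to the deleted part is unknown here, and it is no check of the labels. Spots well above background made up 70.3% to 73.2% on the WT arrays and 62.5% to 65.1% on the KO arrays, without overlap. WT 1, 2 and 3 and KO 947 shared 1 slide, and KO 948 and 949 lay on another. Marker lists of other cells also differed: 4 of 11 dendritic cell, 3 of 10 stromal, 3 of 10 eosinophil, mast cell and basophil and 1 of 11 granulocyte markers measured passed as lower. None passed as higher, and over all genes 2.27% were called lower and 1.14% higher. Without passing, 2 granulocyte markers and 1 eosinophil, mast cell and basophil marker were above 0. All 12 markers of cycling cells had a higher mean in KO, though none passed. The summed levels of these lists, on the log2 scale, ran from 8.61 to 8.86 in WT and 8.05 to 8.17 in KO for dendritic cells, and from 3.47 to 5.37 and 2.04 to 2.55 for stromal cells. They ran from 4.69 to 5.79 and 2.84 to 4.54 for eosinophils, mast cells and basophils, from 7.75 to 7.88 and 7.28 to 7.42 for granulocytes, and from 7.17 to 7.30 and 7.48 to 7.70 for cycling cells. The sums of the 7 macrophage markers were 8.34 to 8.51 in WT and 8.42 to 8.56 in KO. In WT they lay below those of the 11 dendritic cell markers, but sums over different probes and list sizes cannot be ranked against each other. Of the dendritic cell markers Cd74, Ccl17 and Itgax were brightest, at WT means of 7.33, 7.28 and 6.11, and made up most of the sums. Flt3, Zbtb46 and Fscn1 were dim, at -2.96, -2.69 and -3.24 in WT, and the other markers lay between. For the 4 measured adipocyte markers of 7, whose cells are rich in fatty acid enzymes, the sums were 5.47 to 6.32 in WT and 5.84 to 6.35 in KO, and Plin1, Lep and Cfd were not measured. Fabp4 made up most of these sums, at a mean of 5.76 in WT and 5.92 in KO. Adipoq was lower in all 3 KO mice (-2.49) without passing, and was well above background on 3 WT and 0 KO arrays. Cidec differed by -0.36 and Pparg by 0.38. The part of these cells in the values below was not tested, and in such bulk RNA fewer cells of a type and less RNA per cell cannot be told apart.

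No member passed the test between genotypes. Levels are log2 signals less the log2 75th percentile of each array, and differences are KO minus WT from limma with Benjamini-Hochberg adjustment over all 15750 genes and a threshold of 0.05. Of the 33 members 0 were higher and 0 lower past that threshold, beside 1.14% of all genes called higher and 2.27% called lower. At an unadjusted p under 0.05, 6 members (18.2%) were higher and 0 lower, beside 8.86% and 11.6% of all genes in those directions. The 3 KO mice lay above the 3 WT mice in 8 members (24.2%) and below them in 0, beside 13.4% and 13.5% of all genes. The median difference of the 33 was 0.12, with 21 above 0 (63.6%), whereas that of all genes was -0.01, with 49.2% above 0. With each array scaled to its median the median of all genes moved to 0.21 and that of the members to 0.34, so that 30 members were above 0 but 22 above the median of all genes, as many as with the main scaling. The differences were small: the 95% interval of 30 members lay within a 2-fold change either way, and those of Srebf2, Insig1 and Scd1 reached beyond it.

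**Figure D1:**
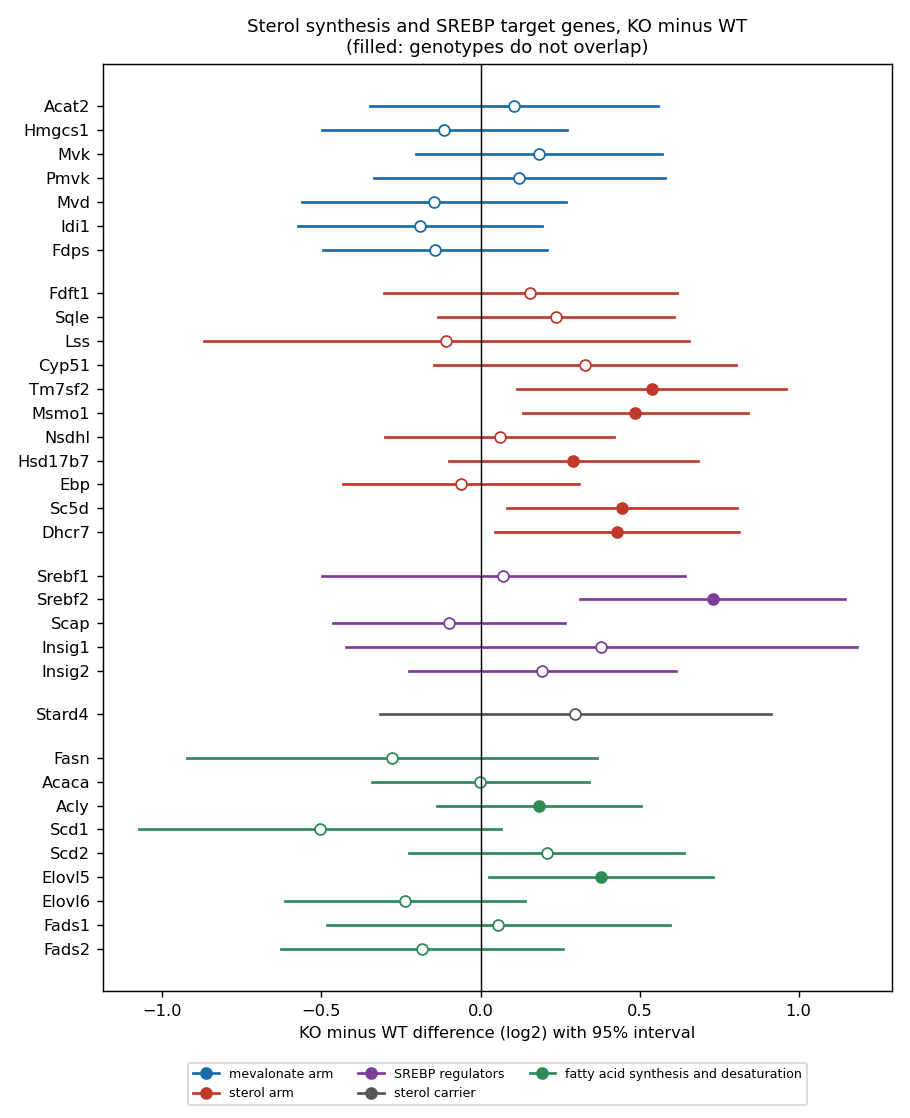
KO minus WT difference (log2, horizontal axis) of each of the 33 genes with its 95% interval from limma, in the order and colour of the pathway arms. Filled points are the 8 genes whose genotypes do not overlap; all 8 lie above 0, and 5 of them are in the sterol arm.

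The late steps, from squalene to cholesterol, held 5 of the 8 members whose genotypes did not overlap. Of the 11 sterol arm genes 9 were above 0, with a median difference of 0.29 (0.36 with slide as a blocking factor; 0.51 with scaling to the array median, where all genes were at 0.21). In 5 of the 11 the KO mice lay above the WT mice, beside a share of 13.4% of all genes. Msmo1, the oxidase that starts the removal of the C4 methyl groups, read 5.22, 5.00 and 5.33 in WT 1, 2 and 3, against 5.68, 5.63 and 5.71 in KO 947, 948 and 949. All KO values were above all WT values and lay within 0.07 of each other, giving a difference of 0.49 ± 0.15 (SE, n = 3 mice per genotype; 1.40-fold) that missed the threshold (adjusted p = 0.134). Tm7sf2, a sterol reductase of the C14 double bond, read 3.17, 3.15 and 2.85 in WT, against 3.83, 3.40 and 3.55 in KO. KO 947 was the highest, and the difference was 0.54 ± 0.18 (adjusted p = 0.156). A dimmer Tm7sf2 probe gave 0.41, also without overlap.

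Sc5d, the desaturase of the next to last steps, read 3.76, 3.61 and 3.85 in WT, against 4.07, 4.15 and 4.35 in KO. Its difference was 0.44 ± 0.15 (adjusted p = 0.166), and KO 949 was highest. Dhcr7, the reductase that turns 7-dehydrocholesterol into cholesterol, read -0.77, -0.89 and -1.07 in WT, against -0.30, -0.50 and -0.64 in KO. The groups stood apart by the small gap between WT 1 and KO 949, and the difference was 0.43 ± 0.16 (adjusted p = 0.2015). Hsd17b7, the ketoreductase of C4 demethylation, read 1.61, 1.32 and 1.66 in WT, against 1.66, 1.84 and 1.96 in KO. WT 3 and KO 947 were nearly equal, and the difference of 0.29 ± 0.16 missed the threshold by limma (adjusted p = 0.371); it was 0.14 with slide as a blocking factor. A dimmer Hsd17b7 probe gave 0.05, with overlap.

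The other 6 sterol arm genes overlapped between genotypes. Cyp51, the lanosterol demethylase, differed by 0.33 ± 0.20, and Sqle, the squalene epoxidase that is a control point of the route, by 0.24 ± 0.16. Fdft1, which makes squalene, differed by 0.16 ± 0.19, and Nsdhl, the C4 decarboxylating dehydrogenase, by 0.06 ± 0.15. Their dimmer probes gave -0.01 ± 0.70 for Fdft1 and 0.04 ± 0.24 for Nsdhl. Ebp, the isomerase of the sterol ring, differed by -0.06 ± 0.16 (0.15 with scaling to the array median). Lss, which closes squalene epoxide into lanosterol, differed by -0.11 ± 0.32 and had the widest KO range, from -0.65 in KO 949 to 0.47 in KO 947; it was at 0.35 with slide as a blocking factor and 0.11 with scaling to the array median.

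**Figure D2:**
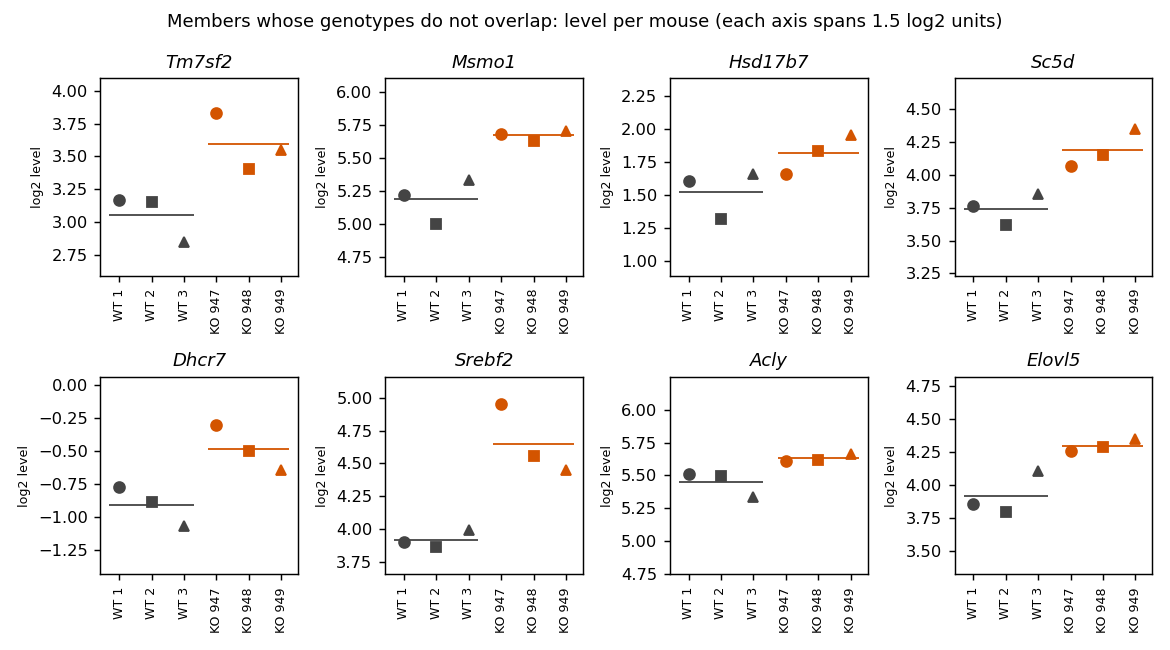
Log2 level (vertical axis, 1.5 units in each panel) in each of the 6 mice for the 8 members whose genotypes do not overlap; grey points are WT, orange points KO, and lines the genotype means. Shapes only tell mice of 1 genotype apart. The gap is narrowest in Hsd17b7 and widest in Srebf2.

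The early steps run from acetyl-CoA to farnesyl pyrophosphate. All 7 genes of this mevalonate arm overlapped between genotypes, 3 were above 0, and the median difference was -0.11 (0.01 with slide as a blocking factor; 0.10 with scaling to the array median, where all genes were at 0.21). Hmgcs1, the synthase that makes HMG-CoA, whose core element is printed above, read 5.06, 4.88 and 5.16 in WT, against 4.82, 4.82 and 5.12 in KO. The difference was -0.11 ± 0.16 with a 95% interval from -0.50 to 0.27 (adjusted p = 0.735). Idi1, the isopentenyl pyrophosphate isomerase, differed by -0.19 ± 0.16, Mvd, the mevalonate pyrophosphate decarboxylase, by -0.15 ± 0.17, and Fdps, the farnesyl pyrophosphate synthase, by -0.14 ± 0.15. With scaling to the array median Hmgcs1, Idi1, Mvd and Fdps were at 0.10, 0.03, 0.07 and 0.07. The kinases Mvk and Pmvk differed by 0.18 ± 0.16 and 0.12 ± 0.19, and Acat2, the thiolase of the first step, by 0.11 ± 0.19. The dimmer probes of Mvk and Pmvk gave 0.01 and -0.12. Whether the sterol arm and the mevalonate arm differ from each other was not tested.

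Among the regulators, Srebf2 had the largest difference of all 33 genes, and its probes disagreed. The brighter Srebf2 probe read 3.90, 3.87 and 3.996 in WT, against 4.95, 4.56 and 4.45 in KO. The WT mice lay within 0.13 of each other and KO 947 was the highest, and the difference was 0.73 ± 0.18 (SE, n = 3 per genotype; 1.66-fold; 95% interval 0.31 to 1.15; adjusted p = 0.078). The dimmer probe, assigned to the same transcript accession, read 1.59, 1.60 and 1.66 in WT, against 1.15, 1.16 and 1.19 in KO. All its KO values were below all its WT values, a difference of -0.45 ± 0.13 (adjusted p = 0.134, fitted over single probes). The mean of both probes gave 0.14, so the direction of Srebf2 rests on which probe is read. The authors' deposited table holds both probes, at 0.75 and -0.43. The brighter probe passed with scaling to the array median (0.95, adjusted p = 0.0314), with a trended robust variance (adjusted p = 0.0267) and with array weights (0.65, adjusted p = 0.0320). Srebf2 did not pass in the other 11 alternatives fitted to the scanner values or when any 1 array was left out. Of these 11, the mean of the probes takes in the dimmer probe, so it does not test the brighter probe alone.

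**Figure D3:**
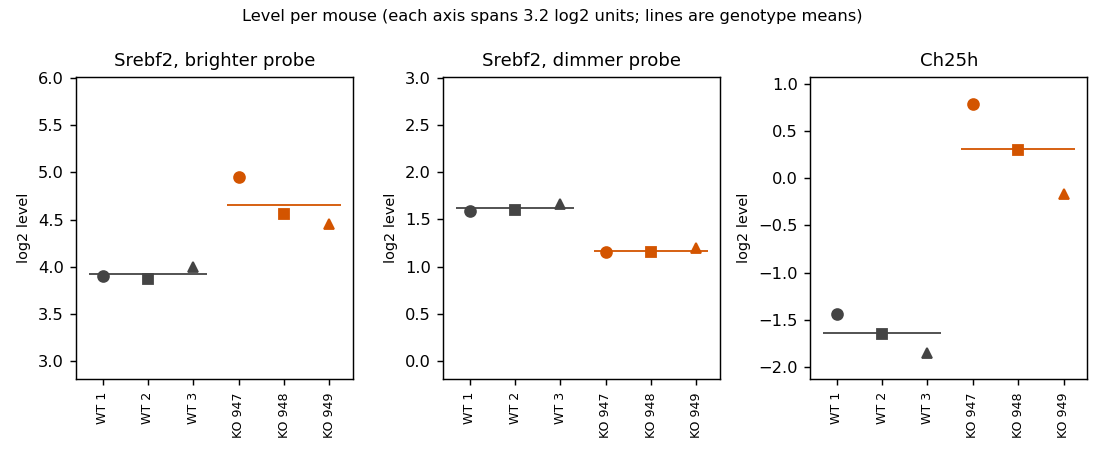
Log2 level (vertical axis, 3.2 units in each panel) per mouse for both Srebf2 probes and for Ch25h; grey is WT, orange is KO, and lines are genotype means. The brighter Srebf2 probe is higher in all 3 KO mice and the dimmer probe lower in all 3, while Ch25h is higher in all 3.

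The other 4 regulators overlapped between genotypes. Srebf1 read -0.51, -1.28 and -1.22 in WT, against -1.03, -1.03 and -0.73 in KO, and WT 1 was the highest of all (0.07 ± 0.24, adjusted p = 0.897; -0.06 to 0.32 with 1 array left out). Scap, the escort, read 4.13, 4.05 and 3.80 in WT, against 3.94, 3.79 and 3.96 in KO (-0.10 ± 0.15, adjusted p = 0.758; 0.12 with scaling to the array median). Insig1, itself a target of SREBP proteins, was dim and spread widely, at -3.39, -3.23 and -2.27 in WT, against -2.69, -2.88 and -2.18 in KO. WT 3 and KO 949, the females, were the highest of their groups, and the difference was 0.38 ± 0.34 (95% interval -0.42 to 1.18, adjusted p = 0.575). With 1 array left out it ran from 0.17 (without WT 1) to 0.72 (without WT 3). Insig2, which is controlled apart from SREBP proteins, read 3.23, 3.63 and 3.29 in WT, against 3.78, 3.49 and 3.47 in KO (0.19 ± 0.18, adjusted p = 0.584). A second Insig2 probe, assigned to another accession, gave 0.59 with overlap (adjusted p = 0.362).

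Stard4, a soluble carrier that moves cholesterol between membranes, split by slide. It read 2.34, 2.67 and 2.40 in WT, 2.22 in KO 947 and 2.99 and 3.09 in KO 948 and 949, so KO 947 was the lowest of the 6 mice and the other KO mice the highest. The difference was 0.30 ± 0.26 (adjusted p = 0.565) and -0.25 with slide as a blocking factor. A dimmer Stard4 probe had the opposite order, with KO 947 highest at 0.25 and KO 948 and 949 lowest at -0.9996 and -1.29 (-0.27 ± 0.39).

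The fatty acid genes showed no common direction. Of 9 genes 4 were above 0, and their median was -0.0003 (0.10 with slide as a blocking factor, 0.22 with scaling to the array median). Elovl5, an elongase of polyunsaturated fatty acids, read 3.86, 3.80 and 4.11 in WT, against 4.26, 4.29 and 4.35 in KO. The KO mice lay within 0.09 of each other and above WT (0.38 ± 0.15, adjusted p = 0.214). Acly, which makes cytosolic acetyl-CoA from citrate, read 5.51, 5.50 and 5.34 in WT, against 5.61, 5.62 and 5.66 in KO. The groups did not overlap, yet the difference was 0.18 ± 0.13 (adjusted p = 0.4935), and a dimmer probe gave -0.61, above background on 4 of 6 arrays. Scd1, the stearoyl-CoA desaturase, had the lowest difference of the 33 genes, at 1.33, 1.30 and 0.72 in WT, against 0.49, 0.38 and 0.95 in KO. Its genotypes overlapped through WT 3 and KO 949, the females, and the difference was -0.51 ± 0.24 (95% interval -1.07 to 0.06, adjusted p = 0.295). Over the arrays of males it was -0.87 (adjusted p = 0.159), but each genotype has 1 female, so nothing is read from this about sex. Its close relative Scd2 was at 0.21 ± 0.18; how far their probes cross-hybridise was not tested.

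The remaining fatty acid genes all overlapped. Fasn, the fatty acid synthase, differed by -0.28 ± 0.27 with a KO range of 1.03, from -2.47 in KO 947 to -1.45 in KO 948, and was at -0.71 with slide as a blocking factor. Acaca, the acetyl-CoA carboxylase that commits carbon to fatty acids, differed by -0.0003 ± 0.14 ( 95% interval -0.34 to 0.34); its other 2 probes were not well above background on any array. Elovl6, which lengthens saturated fatty acids, differed by -0.24 ± 0.16. The desaturases of polyunsaturated fatty acids, Fads1 and Fads2, differed by 0.06 ± 0.23 and -0.18 ± 0.19, with Fads2 at 0.03 both with slide as a blocking factor and with scaling to the array median.

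Among the KO mice, KO 947 was most often the highest and KO 948 seldom was. KO 947 had the highest KO value in 18 of 33 members, KO 949 in 14 and KO 948 in 1, while the WT mice led their group in 11, 8 and 14. In 8 members KO 947 had the lowest KO value. Relative to the WT mean, the median of the sterol arm was 0.36 in KO 947, 0.13 in KO 948 and 0.27 in KO 949, and 0.07, 0.02 and -0.02 in the WT mice. The mevalonate arm was at 0.01, -0.06 and -0.02 in KO, and between 0.03 and 0.04 in WT. The median of all genes tested was 0.02 in KO 947 and -0.03 in both KO 948 and KO 949. The WT mean is the reference here, so WT values lie near 0 by construction.

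**Figure D4:**
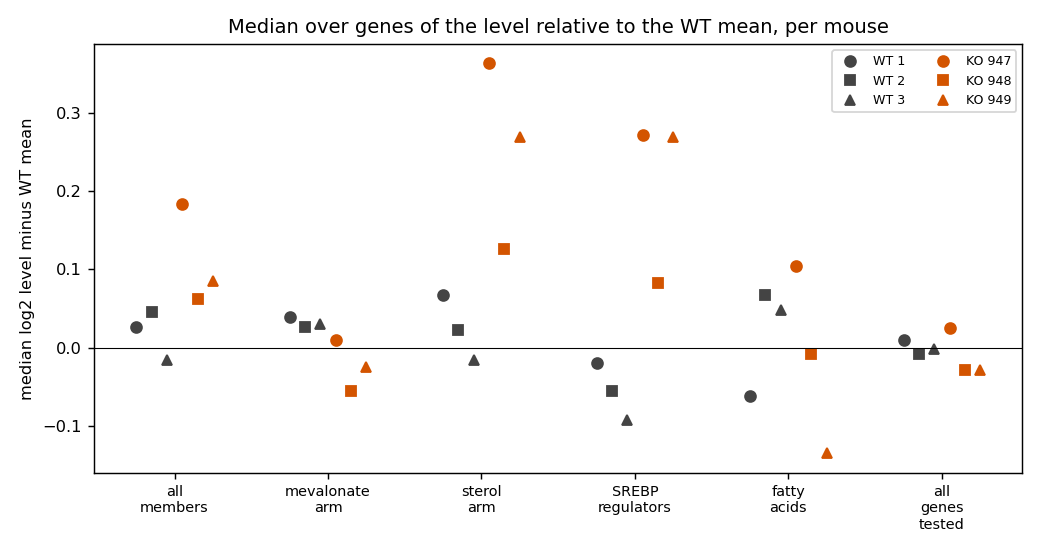
Median over the genes of an arm of the log2 level minus the WT mean of each gene (vertical axis), per mouse; grey is WT and orange KO. In the sterol arm the KO mice lie at 0.36, 0.13 and 0.27, above the WT mice. In the mevalonate arm the KO mice lie below the WT mice by a small gap, with KO 947 at 0.01 and WT 2 at 0.03. The median difference of that arm was -0.11, but 0.10 with scaling to the array median.

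Since KO 947 alone shares a slide with WT, the fit with slide as a blocking factor gives the same differences as KO 947 against WT. Its error also draws on the spread between KO 948 and 949. In that fit 0 members passed and 23 of 33 were above 0. Msmo1 was at 0.49 on that slide and 0.48 on the other (KO 948 and 949 against the same WT mice), Elovl5 at 0.34 and 0.40, Acly at 0.16 and 0.19, and Sc5d at 0.33 and 0.50. Srebf2 (1.03 and 0.58), Tm7sf2 (0.77 and 0.42) and Dhcr7 (0.61 and 0.34) were higher in KO 947, and Hsd17b7 (0.14 and 0.37) was lower there. In 12 of the 33 members the values lay on opposite sides of 0. They were Stard4 (-0.25 and 0.57), Lss (0.35 and -0.34), Fdft1 (0.50 and -0.01), Fads1 (0.38 and -0.11), Acat2, Pmvk, Mvd, Idi1, Nsdhl, Srebf1, Acaca and Fads2. The members' spread within genotypes had a median SD of 0.19, against 0.25 over all genes, and was widest in Insig1 (0.50), Lss (0.47), Fasn (0.38) and Stard4 (0.36).

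**Figure D5:**
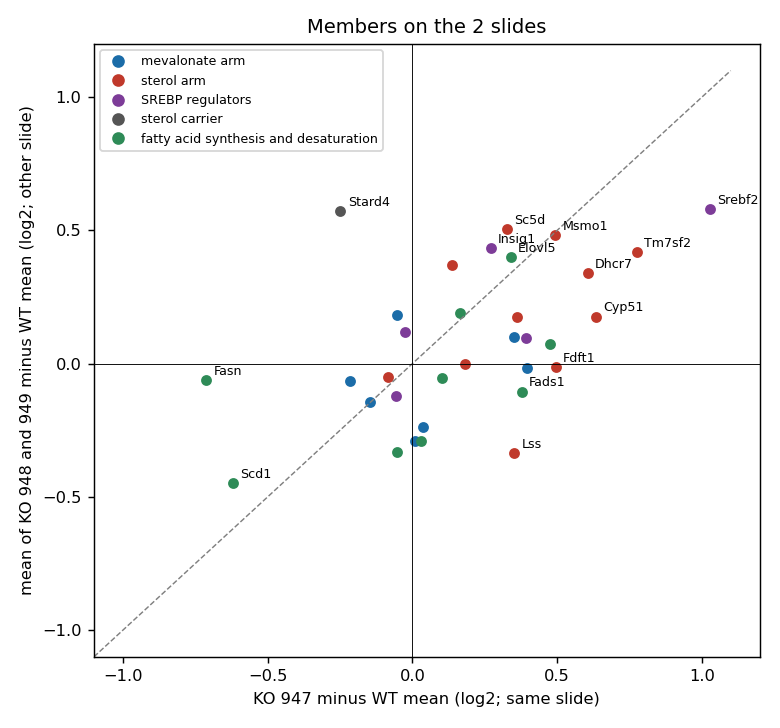
Each point is 1 member: KO 947 minus the WT mean (log2, horizontal axis, same slide as WT) against the mean of KO 948 and 949 minus the same WT mean (vertical axis, other slide), coloured by arm; the dashed line marks equal values, and both axes share the WT mice. Srebf2 (1.03 and 0.58) lies farthest to the right, and Stard4 (-0.25 and 0.57) lies on opposite sides of 0.

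Around these genes, the oxysterol enzyme Ch25h rose. Ch25h makes 25-hydroxycholesterol, which holds SREBP proteins back by binding Insig proteins. It read -1.44, -1.65 and -1.85 in WT, against 0.79, 0.30 and -0.17 in KO. All KO values were above all WT values, a difference of 1.95 ± 0.26 (3.87-fold, n = 3 per genotype, adjusted p = 0.0180; 2.43 with slide as a blocking factor, adjusted p = 0.0430). The call was lost without WT 1, WT 2, WT 3 or KO 948 (adjusted p = 0.0633, 0.0686, 0.0548 and 0.0683), where the differences were 2.06, 1.95, 1.85 and 1.95. It was also lost within the slide of both genotypes, which holds 1 KO mouse, at a difference of 2.43 (adjusted p = 0.0574). Ch25h was the 1 of 17 measured genes of the LXR, oxysterol and cholesterol ester list that passed; the other 16 did not, and the list's median was 0.07 (-0.02 with slide as a blocking factor). At an unadjusted p under 0.05 it had 1 higher gene, Ch25h, and 1 lower. The lower gene, Cyp27a1, which makes 27-hydroxycholesterol, is named here after its values were seen. It read -2.67, -3.08 and -2.33 in WT, against -3.10, -3.63 and -3.95 in KO, all lower in KO (-0.87 ± 0.28, adjusted p = 0.152).

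Of 14 measured genes in the list of further SREBP targets none passed, and the median was 0.15; an unadjusted p under 0.05 was reached by 2 genes that were higher and 1 that was lower. Acss2, which activates acetate to acetyl-CoA, read 2.63, 3.58 and 2.55 in WT, against 1.39, 1.34 and 1.71 in KO, all lower in KO (-1.44 ± 0.30, adjusted p = 0.0550, and -1.39 by a second probe). Por, the reductase that supplies electrons to Cyp51 and Sqle, read 2.94, 3.51 and 2.70 in WT, against 3.89, 3.82 and 4.07 in KO, all higher in KO (0.88 ± 0.23, adjusted p = 0.0978). Acss2 passed in 4 and Por in 1 of 14 alternatives. No gene passed among 12 of SREBP processing and turnover (median 0.09, none with an unadjusted p under 0.05), where Mbtps2, the intramembrane protease that frees SREBP proteins, was at 0.40 ± 0.20 and Erlin2 at 0.25 ± 0.15. None passed among 14 genes of the non-sterol branch (median 0.16, or 0.45 with slide as a blocking factor, with 1 higher at an unadjusted p under 0.05). There Pdss2, of ubiquinone side chain synthesis, was at 0.45 ± 0.15 (adjusted p = 0.171; -0.41 by a second probe) and Coq2, which attaches that chain, at 0.36 ± 0.16 (adjusted p = 0.265; 0.37 by a second probe). The cycling cell markers had a median difference of 0.42, and their summed level was higher in every KO mouse than in any WT mouse. Single markers could overlap between genotypes, as Mki67 did at a difference of 0.07. The part of cycling cells in these values was not tested.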

How the data were processed

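Each deposited file gives an intensity per spot, made with Agilent Feature Extraction (10.7.3.1 per the file headers, but 9.1 per the submitters' processing notes). Its processed signal was background-subtracted and detrended within each array and not scaled between arrays, per the file headers. The authors' deposited table of the series gives log2 values of 3215 probes, each centred over the arrays; the genotypes overlap in 0 of them, so it is no independent evidence.

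Here log2 processed signals were reduced by the log2 75th percentile of the array, outlier spots were left out, and spots of a probe were averaged. Of 55681 probes 26413 were named through RefSeq accessions (GRCm38.p6). A minimum of 3 of 6 arrays with signal well above background per probe left 15750 genes. Genotypes were compared with limma 3.58.1 (R 4.3.3) without covariates, two-sided, over the 6 arrays. The number of arrays, 3 per genotype, limits precision. On simulated data for KO minus WT (15715 genes) the fit called 38.8% of genes changed 2-fold, 80.6% of those changed 4-fold and 87.9% of those changed 8-fold. The fit also called 7 unchanged genes. No change below 2-fold was simulated, whereas the largest member difference was 1.66-fold, so these rates do not cover the members. Normexp (offset 50) used median spot signals. Members and lists were chosen with earlier results of these data known. The named genes are all members, list genes past the threshold, or else the lowest 2 by p. A genotype by sex interaction was fitted (limma, 4 of 15745 genes called), but each genotype has 1 female, so nothing is read from it for the members.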

Additional observations from a re-analysis of the deposited data

How the results depend on the processing

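The members called were 0 higher and 0 lower in most alternatives. Exceptions were scaling to the array median with 1 higher (Srebf2), array weights with 1 (Srebf2) and a trended robust variance with 2 (Srebf2 and Msmo1). The authors' deposited table was another, with 3 of the 4 members it holds called higher (Srebf2, Msmo1 and Elovl5). All its probes separate the genotypes, and 1496 of its 1607 genes were called. These 3 calls therefore do not test the members. The members' median, 0.12, was 0.34 with scaling to the array median, 0.18 with the slide as a block or within the slide of both genotypes, 0.0556 with the mean of the probes, 0.0656 with array weights and 0.45 in the authors' table, and 0.0736 to 0.1729 with 1 array left out (lowest without KO 947, highest without KO 948). The 538 genes called over all became 343 with quantile normalization, 275 with no filter, 84 with the slide as a block, 255 with it as a random block, 24 within the slide of both genotypes, 301 with sex as a covariate, 183 on arrays labelled male, 809 with a trended robust variance, 1750 with array weights, and 77 (without WT 1) to 899 (without KO 947) with 1 array left out. Of these calls 33.5% were higher in KO, and 62.6% with scaling to the array median, 11.5% on male arrays and 8.33% within the slide. No paired analysis was possible because the genotypes share no replicate numbers. What sets these changes was not tested.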
